A study of Mus musculus with 3 samples.

Results

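Acetylcholine acts in the cortex through muscarinic and nicotinic receptors. The receptor genes described are the muscarinic genes Chrm1, Chrm2, Chrm3 and Chrm4 and the nicotinic subunit genes Chrna3, Chrna4, Chrna5, Chrna7, Chrnb2 and Chrnb4. Members were the gene probes whose RefSeq accession maps to one of these symbols, and no measured value was used in this mapping. The genes themselves were chosen with earlier results of these data known. The rule found 13 probes for all 10 genes, out of 15720 genes named on the array and 41174 gene probes, of which 21437 could be named. Adult cortex RNA from Gtf2i(+/Δex2) mice, whose label gives 1 normal Gtf2i copy and 1 with exon 2 deleted, was set against RNA from WT (+/+) mice on 3 two-colour Agilent arrays of oligonucleotide probes. Both genotypes were 16 weeks old and had the same mixed background of 98.4% C57BL/6J and 1.6% 129Sv/CD1. Each hybridised RNA was a pool drawn from 3 to 5 mice of a genotype, so the spread between single animals was not measured. The mutant RNA carried Cy3 on replicates 1 and 3 and Cy5 on replicate 2. Nothing in the labels tells whether each array had a pool of its own, so every p-value measures only how far these 3 arrays spread, possibly for technical reasons, and their number limits the precision.

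Muscarinic receptors are single-chain receptors coupled to G proteins: those encoded by Chrm1 and Chrm3 act through Gq and phospholipase C, and those encoded by Chrm2 and Chrm4 through Gi and Go. Nicotinic receptors are pentameric cation channels, and the main forms in forebrain are built from the alpha4 subunit of Chrna4 with the beta2 subunit of Chrnb2, or from the alpha7 subunit of Chrna7 alone. The alpha3 and beta4 subunits of Chrna3 and Chrnb4 are typical of autonomic ganglia and the medial habenula, and the alpha5 subunit of Chrna5 joins other subunits as an accessory, in cortex chiefly in deep layer neurons. TFII-I, the protein that Gtf2i encodes, is a transcription factor known to bind E-boxes and initiator elements, and its gene lies in the interval deleted in Williams-Beuren syndrome.

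Because TFII-I is a DNA-binding factor, the promoters of the 4 receptor genes that the results turn on are shown with each E-box match, written CANNTG, in capitals. This motif reads the same on both strands, and each sequence runs 5′ to 3′ from 250 bases before to 50 bases after the gene start on the gene's strand, from RefSeq on GRCm38.p6. Chrnb2 is shown from chr3:89764583-89764882 on the minus strand, Chrna4 from chr2:181039128-181039427 on the minus strand, Chrna7 from chr7:63212477-63212776 on the minus strand, and Chrm4 from chr2:91921939-91922238 on the plus strand.
Chrnb2: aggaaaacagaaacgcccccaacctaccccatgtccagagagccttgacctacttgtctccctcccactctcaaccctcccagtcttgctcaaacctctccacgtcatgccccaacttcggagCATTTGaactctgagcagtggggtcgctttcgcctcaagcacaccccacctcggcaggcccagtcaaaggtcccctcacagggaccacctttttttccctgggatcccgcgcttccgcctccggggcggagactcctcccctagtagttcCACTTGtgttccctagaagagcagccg
Chrna4: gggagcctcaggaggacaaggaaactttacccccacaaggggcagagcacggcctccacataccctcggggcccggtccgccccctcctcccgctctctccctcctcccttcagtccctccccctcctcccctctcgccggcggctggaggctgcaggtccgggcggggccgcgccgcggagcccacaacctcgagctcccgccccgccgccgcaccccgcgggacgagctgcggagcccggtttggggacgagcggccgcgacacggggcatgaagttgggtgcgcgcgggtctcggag
Chrna7: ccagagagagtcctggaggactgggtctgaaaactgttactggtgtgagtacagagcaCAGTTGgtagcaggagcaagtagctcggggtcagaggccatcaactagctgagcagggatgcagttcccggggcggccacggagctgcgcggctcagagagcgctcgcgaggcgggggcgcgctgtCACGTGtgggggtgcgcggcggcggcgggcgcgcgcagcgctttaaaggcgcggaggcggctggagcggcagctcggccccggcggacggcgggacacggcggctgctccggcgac
Chrm4: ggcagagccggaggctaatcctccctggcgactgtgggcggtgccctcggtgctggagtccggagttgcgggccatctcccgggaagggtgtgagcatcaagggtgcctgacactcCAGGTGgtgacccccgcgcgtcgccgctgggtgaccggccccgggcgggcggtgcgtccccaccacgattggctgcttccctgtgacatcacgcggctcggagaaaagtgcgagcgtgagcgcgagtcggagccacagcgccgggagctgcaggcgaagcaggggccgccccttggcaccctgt

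The Chrnb2 window held CATTTG and CACTTG, the Chrna7 window CAGTTG and CACGTG, and the Chrm4 window CAGGTG, while the Chrna4 window held none of these letters. RefSeq entries were matched for 9 of the 10 genes, with 10 promoters in all, and 8 of those promoters held CANNTG against 72.3% of all 32851 promoters of that length. The form CACGTG, counted within CANNTG, was found in 1 receptor promoter, that of Chrna7, 66 bases before the start, against 7.15% of all promoters. A match is a description of these letters and not a binding site.

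The direction of every ratio, mutant over wild type, is likely: the sample titles name the mutant first, the deposited readme gives its fold change as test over control, and labelled control spots turned over with the dyes. Gtf2i, the targeted gene, had log2 ratios of -0.46, -0.44 and -0.52 on replicates 1, 2 and 3 with probe A_52_P442585 (limma adjusted p = 0.0026) and -0.34, -0.34 and -0.26 with A_51_P499905 (adjusted p = 0.00505). Where these probes lie relative to exon 2 was not given, and a probe outside it would not read the deleted exon itself. Over the 27530 tested probes, ratios correlated across probes with Pearson r = 0.822 between replicates 1 and 2, 0.783 between replicates 1 and 3, and 0.625 between replicates 2 and 3. Cortical projection neuron markers were present: 8 of 10 genes were tested, Rorb was not reliable and Emx1 had no probe.

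Of the 5 receptor genes bright enough to be tested, 3 were lower in the mutant cortex by their probe with the smallest p: Chrnb2, Chrna4 and Chrm4. Chrna7 and Chrm3 did not pass. The background was high: 33.9% of the 27530 tested probes passed the same test, with 18.9% lower and 15% higher, and among 12717 named genes 40.7% passed, with 23.6% lower and 17.1% higher. By probe, 4 of 8 receptor probes passed, 3 lower and 1 higher. The higher probe was the other probe of Chrm4, and averaged over both probes Chrm4 had a log2 ratio of 0. The median log2 ratio of the 8 receptor probes was -0.11 against -0.002 over all tested probes, and the median size without sign was 0.17 against 0.109. In these bulk samples, fewer cells of a type and less RNA per cell cannot be told apart. With 5 genes, these counts and medians are a description and show nothing particular to the receptors.

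**Figure D1:**
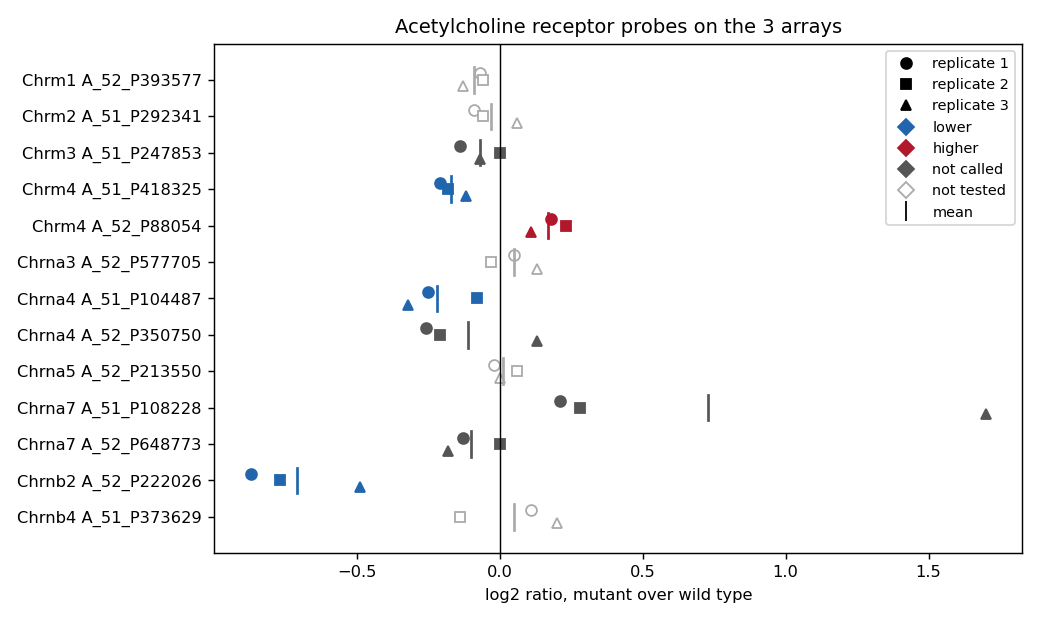
Log2 ratio of mutant over wild type (x axis) for the 13 receptor probes (y axis) on replicates 1 (circle), 2 (square) and 3 (triangle), with the mean as a bar; blue probes were lower, red higher, dark grey not called and open grey not tested. Chrnb2 lies lowest on all 3 arrays, and Chrna7 A_51_P108228 stands at 1.70 on replicate 3 only.

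Chrnb2, on chromosome 3, encodes the beta2 subunit that pairs with alpha4 in the most common high-affinity nicotine receptor of the brain. Its probe A_52_P222026 had wild-type signals of 2360.4, 2313.0 and 2198.1 on replicates 1, 2 and 3 and mutant signals of 1288.8, 1359.7 and 1567.1, in normalized linear intensity. Every mutant signal lay below every wild-type signal. With 3 arrays, agreement between them was common: 65.1% of all tested probes had ratios of the same sign on each. The gap was widest on replicate 1 and narrowest on replicate 3, with log2 ratios of -0.87, -0.77 and -0.49. The mean log2 ratio was -0.71 ± 0.20 (SD, n = 3), or 61.2% of wild type, with a 95% interval from -0.91 to -0.51 and a limma adjusted p of 0.00406. In mean log2 ratio it was the 218th lowest of the 27530 tested probes, with 0.788% of probes lower; were the ratios turned, it would stand equally far from the upper end. Bright probes passed more often and spread more widely: in the signal class that holds Chrnb2, number 9 of 10 classes of equal size from dim to bright, 50% of probes passed and the 5th percentile of log2 ratios was -0.51. The value stayed between -0.84 and -0.63 under all 16 alternatives run for this probe, and the call was lost only with the ordinary t statistic (limma without moderation, adjusted p = 0.121).

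Chrna4, on chromosome 2, encodes the alpha4 partner of beta2. Its probe A_51_P104487 had wild-type signals of 290.2, 294.5 and 324.6 and mutant signals of 243.5, 279.4 and 260.1. The groups did not overlap, and the ratio was smallest on replicate 2. The mean log2 ratio was -0.22 ± 0.13 (SD, n = 3), or 86.1% of wild type, with an interval from -0.36 to -0.07 and a limma adjusted p of 0.0378. This call depended on single arrays: the adjusted p was 0.199 without replicate 1 and 0.0643 without replicate 3. The other Chrna4 probe, A_52_P350750, had wild-type signals of 190.4, 190.3 and 158.5 and mutant signals of 158.8, 164.8 and 173.3. Here the groups overlapped and replicate 3 went the other way, with log2 ratios of -0.26, -0.21 and 0.13. Its mean of -0.11 ± 0.21 (SD, n = 3; interval -0.32 to 0.10) did not pass (limma adjusted p = 0.331), but without replicate 3 it was -0.23 and passed (adjusted p = 0.00925). The Chrnb2 and Chrna4 probes were read on the same arrays, and whether the subunits differed in response was not tested.

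Chrna7, on chromosome 7, encodes the alpha7 subunit of the fast, calcium-permeable homomeric channel. Its 2 probes went in different directions and neither passed the test. Probe A_51_P108228 had wild-type signals of 154.6, 155.2 and 167.5 and mutant signals of 179.3, 188.2 and 544.9. The mutant signal exceeded every wild-type signal on each array, and on replicate 3 it was far above the others while the wild-type signal there was near its other values. The log2 ratios of 0.21, 0.28 and 1.70 gave a mean of 0.73 ± 0.84 (SD, n = 3), 166% of wild type, an interval from -0.02 to 1.48 and a limma adjusted p of 0.116. Without replicate 3 the mean was 0.25 and passed (limma adjusted p = 0.0075). The second probe, A_52_P648773, had wild-type signals of 242.5, 226.1 and 236.1 and mutant signals of 221.4, 225.7 and 208.6. Its groups did not overlap, since the highest mutant signal was just below the lowest wild-type signal, and its mean log2 ratio of -0.10 ± 0.09 (SD, n = 3; interval -0.23 to 0.02) did not pass (limma adjusted p = 0.153). On replicate 3 this probe had a log2 ratio of -0.18, opposite to the first. The probes differ, and no value is given for Chrna7 as a gene.

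The replicate 3 value of A_51_P108228 was looked at more closely after it was seen. Its log2 ratio there exceeded the mean of replicates 1 and 2 by 1.45, a gap reached by 8 of 27530 tested probes including this one, or 0.0291%. Not all of these were high on replicate 3: Sema6a, with ratios of -0.18, -3.01 and -0.08, reached the gap through replicate 2. The 72 gene spots within 4 rows and 4 columns of it on that array had a median log2 ratio of -0.05 and a highest value of 0.44, and 0 of them exceeded 1. Several regional marker lists stood apart on that array, the thalamic list most. Over the 12 tested probes of 8 thalamic genes, the mean log2 ratio was 0.04, 0.07 and 0.78 on replicates 1, 2 and 3. The summed wild-type signal of those probes was 11800, 12500 and 6350, and the summed mutant signal 12700, 14000 and 12000. The summed thalamic signal of wild type was low on replicate 3, whereas for the Chrna7 probe the mutant signal was high. Zic1 (A_51_P194230) had wild-type signals of 2439, 2719 and 801, and Tcf7l2 (A_52_P566741) 1945, 2083 and 613. Wild-type signals were also lower on replicate 3 for Prkcd (A_51_P460734: 634, 609 and 279), Tnnt1 (500, 563 and 279) and Ntng1 (1618, 1763 and 1178). The probes of Rora and Lhx9, the other Zic1 probe and the other Prkcd probe were lower there as well. The second Tcf7l2 probe, A_52_P146043, stayed near level at 248, 236 and 231, as did Ramp3 at 1078, 1111 and 1076. All 8 thalamic genes with a probe had a tested probe, and Plekhg1 had no probe. Array means also turned from negative to positive on replicate 3 for markers of striatum (-0.23, -0.37 and 0.15), habenula (-0.18, -0.24 and 0.10) and vessels (-0.04, -0.13 and 0.22). The part of these tissues in any receptor value, that of Chrna4 A_52_P350750 included, was not tested.

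**Figure D2:**
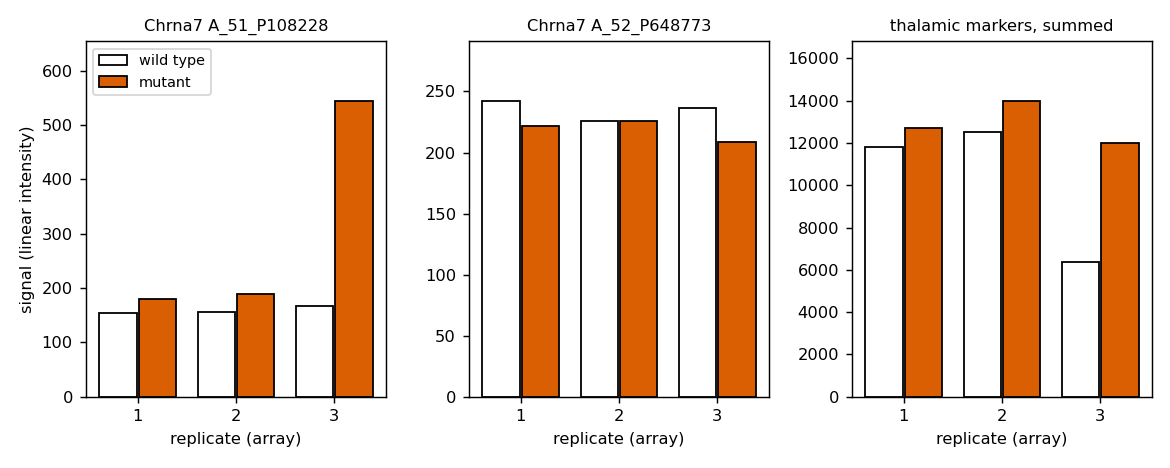
Wild-type (white bars) and mutant (orange bars) signal in normalized linear intensity on replicates 1, 2 and 3, for each Chrna7 probe and for the sum of the tested thalamic marker probes; axes start at 0. On replicate 3 the Chrna7 probe A_51_P108228 reaches 544.9 in the mutant channel, while the thalamic sum is low, at 6350, in the wild-type channel.

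Chrm4, also on chromosome 2, encodes a muscarinic receptor that couples to Gi and Go and is abundant in striatum. Both of its probes passed, in opposite directions. Probe A_51_P418325 had wild-type signals of 370.1, 386.4 and 380.0 and mutant signals of 319.9, 340.2 and 349.7, all lower. Its mean log2 ratio was -0.17 ± 0.05 (SD, n = 3), or 88.8% of wild type, with an interval from -0.27 to -0.07 and a limma adjusted p of 0.0258. Probe A_52_P88054 had wild-type signals of 509.0, 491.1 and 472.6 and mutant signals of 578.1, 574.3 and 509.1. Its groups barely separated, at 509.0 against 509.1, and its mean was 0.17 ± 0.06 (SD, n = 3; interval 0.07 to 0.28), or 112.7% of wild type (limma adjusted p = 0.0295). The first call was lost without replicate 1 (adjusted p = 0.215) and without replicate 2 (adjusted p = 0.0705), and so was the second (0.198 and 0.084, both limma adjusted p-values). Averaged over both probes, the gene had a log2 ratio of 0 and a limma adjusted p of 0.992, so Chrm4 counts as lower only by the rule of the smallest p. Which transcript parts the probes read was not given.

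Chrm3, on chromosome 13, encodes a Gq-coupled muscarinic receptor. Its probe A_51_P247853 had wild-type signals of 185.1, 177.2 and 194.1 and mutant signals of 167.8, 176.8 and 185.4, and the groups overlapped. The mean log2 ratio of -0.07 ± 0.07 (SD, n = 3; interval -0.18 to 0.04) did not pass (limma adjusted p = 0.259), which does not show that the gene was equal in both genotypes. The interval held changes down to -0.18 on the log2 scale.

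**Figure D3:**
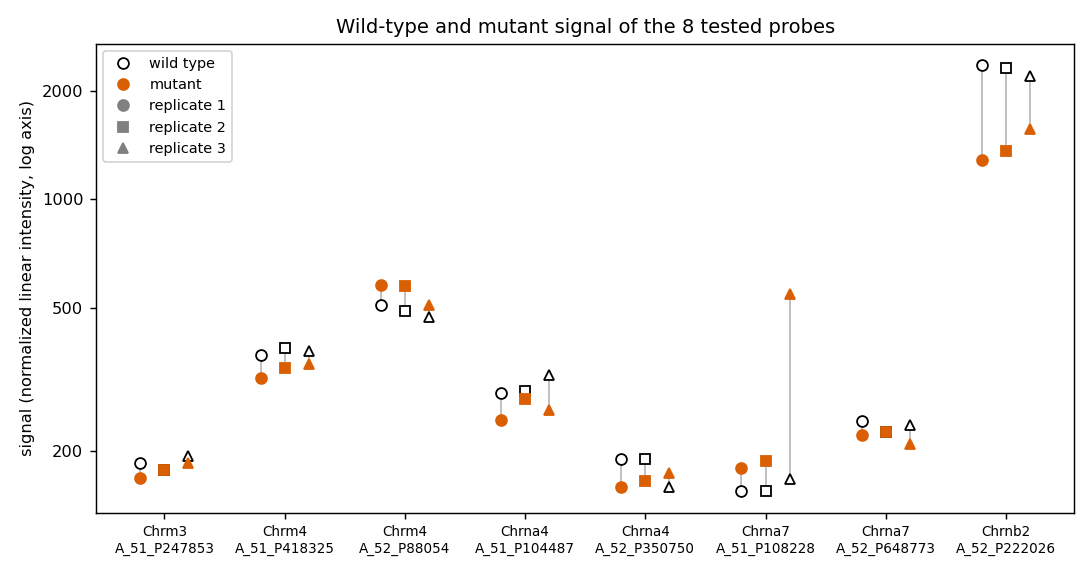
Wild-type (open) and mutant (filled) signal in normalized linear intensity (log axis) of the 8 tested receptor probes (x axis), with a grey line joining the channels of each replicate. The Chrnb2 mutant signals, 1288.8 to 1567.1, lie below all wild-type signals, 2198.1 to 2360.4, and the Chrm4 probes run in opposite directions.

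The remaining 5 receptor genes gave no test, because a spot counts as reliable only where its foreground exceeds 2 times its background, and a probe was tested when reliable on at least 2 arrays. Chrm1, the main Gq-coupled muscarinic receptor gene of cortex, on chromosome 19, was reliable on 0 arrays with probe A_52_P393577. Its wild-type signals were 104.8, 106.0 and 113.2 and its mutant signals 99.7, 101.8 and 103.3, with no overlap. These lie little above the negative control spots, whose median was 72.3 to 81.4 in the wild-type channel and 75.5 to 81.0 in the mutant channel, although Chrm1 is known to be abundant in cortex, so this probe gives no usable level of the gene. Chrm2, an autoreceptor gene on cholinergic terminals, on chromosome 6, was reliable on replicate 3 only. Its wild-type signals were 136.3, 137.7 and 140.4 and its mutant signals 128.3, 132.5 and 146.7, and the groups overlapped.

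Chrna5, Chrna3 and Chrnb4 lie next to one another on chromosome 9 and were reliable on 0 arrays. Chrna3 had wild-type signals of 82.4, 103.8 and 87.8 and mutant signals of 85.5, 101.8 and 96.3. Chrna5 had wild-type signals of 106.0, 103.2 and 111.8 and mutant signals of 104.5, 107.9 and 111.9, and Chrnb4 76.5, 98.1 and 86.9 in wild type and 82.4, 88.8 and 99.9 in the mutant. The groups overlapped for all 3 genes, and these signals set no bound on a change. Of the genes listed as neighbours, RefSeq places Ireb2, Hykk and Psma4 beside the cluster. Adamts7, Morf4l1, Ctsh and Rasgrf1 are not among the 5 protein-coding genes on either side of Chrna3. Psma4, a proteasome subunit gene, had a log2 ratio of -0.14 ± 0.14 (SD, n = 3) and did not pass (limma adjusted p = 0.138), though without replicate 2 it was -0.22 and did (0.0463). Hykk was not reliable and Ireb2 had no probe. Of the more distant genes, Rasgrf1, a Ras exchange factor gene, was lower at -0.53 ± 0.06 (limma adjusted p = 0.00253), Morf4l1, a chromatin protein gene, was higher at 0.29 ± 0.17 (adjusted p = 0.0289, and 0.158 without replicate 1), with its other probes at -0.07 and 0.02, and Ctsh, a cathepsin gene, did not pass at -0.06 (adjusted p = 0.228).

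The receptor probes were also set against all tested probes of like signal. Of the 8, Chrnb2 alone had a mean log2 ratio below the 5th percentile of its signal class, -0.71 against -0.51, and Chrna7 A_51_P108228 alone lay above the 95th percentile, 0.73 against 0.21. The other 6 lay between those percentiles. In class 2, which holds Chrm3 and Chrna4 A_52_P350750, 16.4% of probes passed the test.

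**Figure D4:**
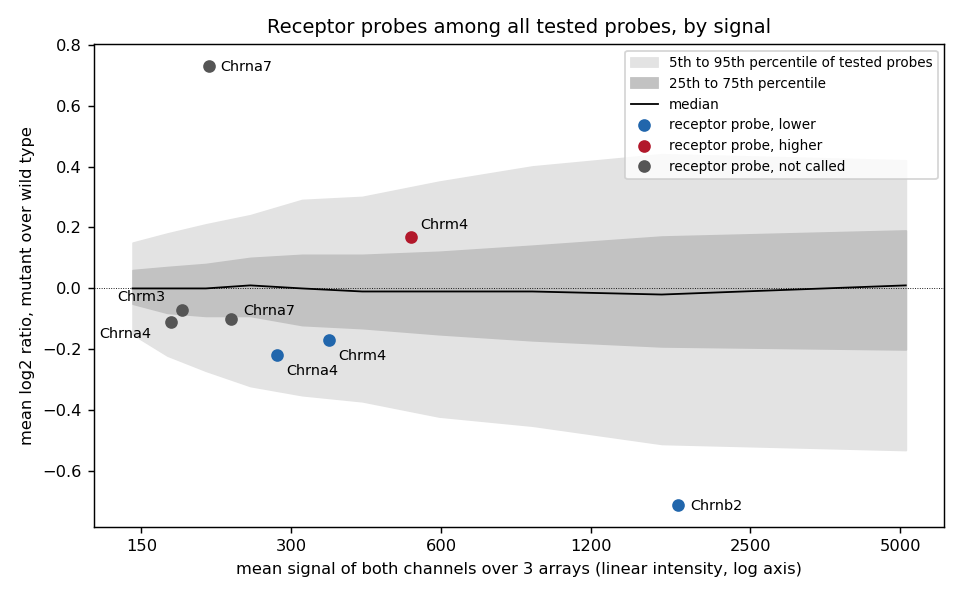
Mean log2 ratio of mutant over wild type (y axis) of the 8 tested receptor probes against mean signal of both channels (x axis, log scale), over bands for the 5th to 95th and 25th to 75th percentiles of all 27530 tested probes in 10 classes of signal. Chrnb2 at -0.71 and the Chrna7 probe A_51_P108228 at 0.73 fall outside the wider band, while the other Chrna7 probe, at -0.10, lies within it.

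For the receptor probe with the smallest p, that of Chrnb2, the genes with the most similar ratios were found by Euclidean distance over the 3 log2 ratios among 12716 other named genes. Hnrnpa3, an RNA-binding protein gene, was nearest with a distance of 0.0601 and log2 ratios of -0.82, -0.75 and -0.48. Ccdc25 followed at 0.0635, then Neto1, an auxiliary subunit gene of glutamate receptors, at 0.0738 with ratios of -0.88, -0.83 and -0.52, Arhgap32 at 0.0881 and Alg9 at 0.0914. With 3 arrays, likeness says only that the ratios were close in size on each.

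The muscarinic and nicotinic genes outside the 10 showed changes both ways. Chrm5, the remaining muscarinic gene, was lower at -0.16 ± 0.04 (SD, n = 3; limma adjusted p = 0.0272), but not without replicate 1 (0.234) or replicate 2 (0.0533). Of 10 other nicotinic subunit genes, 8 were tested, 2 were lower, 1 was higher and 5 did not pass, with a median log2 ratio of 0. Among all named genes 23.6% were lower and 17.1% higher. Chrnd, a muscle subunit gene, was lower at -0.39 ± 0.10 (limma adjusted p = 0.00563), and Chrna6, known from dopamine neurons and retina, at -0.32 ± 0.19 (adjusted p = 0.0265). Chrnb1, the muscle beta subunit gene, was higher at 0.23 ± 0.08 (limma adjusted p = 0.0162). The last 2 calls were lost without replicate 1 (adjusted p = 0.139 and 0.118). Chrng, the fetal muscle subunit gene, had -0.12 ± 0.03 and did not pass (limma adjusted p = 0.0557). Of the 5 skeletal muscle markers, Acta1 alone was tested and did not pass, at -0.02. Ckm, Mylpf and Tnnt3 were not reliable, Myh4 had no probe, and the signal of Acta1 was 202 to 240 in wild type and 206 to 231 in the mutant.

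Of 9 genes that make, move and break down acetylcholine, 7 were tested. Of these, 0 were lower, 1 was higher and 6 did not pass, with a median of 0.12. The share passing over all named genes was 40.7%, with 23.6% lower and 17.1% higher, and dim probes passed less often. Chat, which encodes the enzyme of acetylcholine synthesis, was higher at 0.18 ± 0.09 (SD, n = 3; limma adjusted p = 0.0398), but not without replicate 1 (0.225) or replicate 2 (0.115). Ache, the acetylcholinesterase gene, had 0.15 ± 0.11 (limma adjusted p = 0.0778), and Bche, the butyrylcholinesterase gene, 0.12 ± 0.13 (adjusted p = 0.163, and 0.0311 without replicate 3). Slc18a3, the vesicular acetylcholine transporter gene, had 0.14 ± 0.34 (limma adjusted p = 0.41). Beside these, 2 of 8 basal forebrain cholinergic markers were higher, Chat itself and Isl1 at 0.44 (limma adjusted p = 0.0096), and 0 were lower, with summed signals of the tested probes of 2040 to 2260 in wild type and 2220 to 2420 in the mutant. Their part in the Chat value was not tested.

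Transcripts of proteins that assemble or bind nicotinic receptors were called in both directions. Of 16 genes 13 were tested, 6 were lower, 4 higher and 3 not called, with a median of -0.14. Among all named genes 23.6% were lower and 17.1% higher. Lynx1, a membrane-anchored protein that damps nicotinic receptors, was lower at -0.36 ± 0.04 (SD, n = 3; limma adjusted p = 0.00374). Vsnl1, a calcium sensor known to bind the alpha4 subunit, was lower with both probes, at -0.47 ± 0.08 (limma adjusted p = 0.00339) and -0.39. Agrn, which encodes agrin, the organiser of receptor clusters at the muscle synapse, was higher at 0.37 ± 0.01 (limma adjusted p = 0.00336). Ubqln1, a ubiquilin gene counted as higher at 0.21 (limma adjusted p = 0.0123), had another probe called lower at -0.19 and one at 0.10 that did not pass. Ric3, Rapsn and Musk were not reliable. Without replicate 1 the list held 2 lower and 1 higher genes.

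Signalling genes of the Gq pathway gave 6 lower, 2 higher and 5 not called of 13 tested, from a list of 17, with a median of -0.11. For this list and the Gi and Go list, the background of all named genes was 23.6% lower and 17.1% higher. Gna11, a Gq family alpha subunit gene, was lower at -0.49 ± 0.05 (SD, n = 3; limma adjusted p = 0.00271), as were Kcnq3, a subunit gene of the M-current channel that muscarinic receptors close, at -0.48 ± 0.09 (adjusted p = 0.00347), and Rgs7, a regulator of G protein signalling, at -0.28 ± 0.03 (adjusted p = 0.00625, and 0.0732 without replicate 1). Itpr1, the gene of a calcium release channel, was higher at 0.43 ± 0.09 (limma adjusted p = 0.00434), while its other probe had -0.11. Without replicate 1 the counts were 3 lower and 1 higher. Gi and Go signalling genes gave 5 lower, 1 higher and 5 not called of 11 tested, from a list of 16, with a median of -0.10. Gnao1, the Go alpha subunit gene, was lower at -0.51 ± 0.10 (limma adjusted p = 0.00346), Gnai2 at -0.55 ± 0.21 (adjusted p = 0.00753), and the adenylyl cyclase genes Adcy9 and Adcy8 at -0.46 ± 0.11 and -0.21 ± 0.09 (adjusted p = 0.00443 and 0.0251). Adcy8 lost its call without replicate 1 (limma adjusted p = 0.191) or replicate 2 (0.0578). Without replicate 1, or without replicate 2, the Gi and Go list held 3 lower and 0 higher genes.

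Genes of receptor desensitisation, which phosphorylate or uncouple active receptors, gave 0 lower, 3 higher and 3 not called of 6, with a median of 0.09. Among all named genes 23.6% were lower and 17.1% higher. Grk2, a receptor kinase gene, was higher at 0.40 ± 0.04 (SD, n = 3; limma adjusted p = 0.00323), but its other tested probe was lower at -0.20. Arrb2, an arrestin gene, was higher at 0.31 ± 0.14 (limma adjusted p = 0.0172, and 0.102 without replicate 1 and 0.0562 without replicate 2). Grk3 was higher at 0.17 ± 0.08 (limma adjusted p = 0.0379), with its call lost without replicate 1 (0.272) or replicate 3 (0.0501). Its other probe had 0.01 and was not called. Grk6 had -0.21 ± 0.19 (limma adjusted p = 0.0916), which passed without replicate 3 at -0.29 (0.00792). The other Grk6 probe went the opposite way, at 0.10, and was not called.

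**Figure D5:**
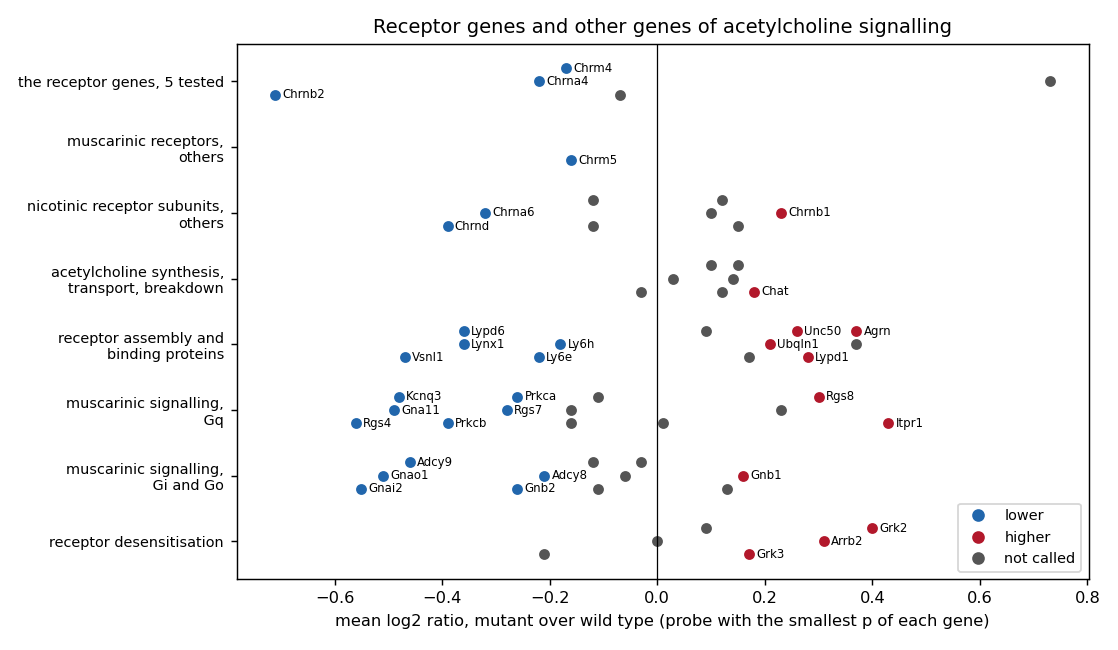
Mean log2 ratio of mutant over wild type (x axis) of the genes shown, each by its probe with the smallest p, in 8 groups of acetylcholine signalling genes (y axis); blue genes were lower, red higher, grey not called. Calls lie on both sides of 0 in the receptor-binding and G protein signalling groups, against 23.6% lower and 17.1% higher of all named genes, and the desensitisation genes Grk2, Arrb2 and Grk3 lie to the right.

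Markers of neurons, glia and vessels were also among the genes that passed the test. Over all named genes 40.7% passed, 23.6% lower and 17.1% higher. Of 8 tested cortical projection neuron markers 6 were lower and 0 higher, with array means of -0.34, -0.33 and -0.40. The summed signal of the tested probes was 9300 to 11700 in wild type and 6760 to 8400 in the mutant. Such sums weigh bright probes most, here Mef2c, with mean signals of 4960 in wild type and 3190 in the mutant. Mef2c was the lowest at -0.64 and Cux2 had -0.45 (limma adjusted p = 0.00201 and 0.00291). Interneuron markers gave 5 lower, 0 higher and 5 not called of 10 tested, with summed signals of 69700 to 72600 in wild type and 53500 to 67600 in the mutant. Slc32a1 was the brightest of them, with mean signals of 26600 in wild type and 31100 in the mutant. Htr3a, the serotonin receptor gene of a class of interneurons that also bear nicotinic receptors, was the lowest at -1.07 ± 0.17 (SD, n = 3; limma adjusted p = 0.00214). Pvalb at 0.35, Vip at 0.28, Slc32a1 at 0.21, Reln at 0.05 and Gad2 at -0.30 did not pass. Without replicate 1, 3 projection neuron markers were lower and 0 higher, and 2 interneuron markers were lower and 1 higher.

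Layer 6 markers gave 2 lower and 2 higher of 7, and 0 lower and 1 higher without replicate 1. Striatal markers gave 2 lower and 0 higher of 9, but 8 lower without replicate 3 and 0 without replicate 1, and habenula markers gave 2 lower and 0 higher of 6 tested, but 4 without replicate 3 and 1 without replicate 1. Thalamic markers gave 0 lower and 1 higher of 8, and 0 called without replicate 1 or without replicate 2. Microglial markers gave 5 lower and 1 higher of 6, but 0 called without replicate 1. Leaving out replicate 1 also cut the calls over all tested probes from 9333 to 2409, so such losses are not particular to a list. Astrocyte markers gave 4 lower and 2 higher of 7. Aqp4 at -0.78 and Slc1a2 at -0.64 were among the lower (limma adjusted p = 0.00197 and 0.00201). Sox9 at 0.57 and Gja1 at 0.39 were the higher (limma adjusted p = 0.00406 for each). Aqp4 also had a probe called lower at -0.30 and one not called at -0.07. The other tested probes of Slc1a2, at -0.01, and of Sox9, at -0.29, were not called. Oligodendrocyte markers gave 3 lower and 2 higher of 8, and 5 lower and 1 higher without replicate 3. Vessel markers gave 2 lower and 2 higher of 6, and 4 lower and 2 higher without replicate 3. The part of these markers in the receptor values was not tested.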

How the data were processed

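Each array table that the authors deposited lists a linear intensity per channel at 44290 spots. The readme says that background was subtracted and the channels normalized, without naming the method. The authors also deposited a log2 ratio with repeated spots collapsed, and, as a score, a signed fold change, per the file headers. The value table of the series equalled that fold column at every spot (0 differences), with medians of -1.01, -1 and 1, and 0 of its columns were unused. Gene spots numbered 41534, and 67.8%, 64.4% and 69.7% of them were reliable on replicates 1, 2 and 3. Pro25G control spots had median log2 ratios of 4.51, -4.54 and 4.58, which turned over with the dyes.

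Log2 ratios of the deposited channels were averaged over the spots of a probe and tested against 0 across all 27530 probes reliable on at least 2 arrays by lmFit and eBayes of limma 3.58.1, run in R 4.3.3 with the package data.table in version 1.17.8. Benjamini-Hochberg adjustment covered all of these probes, with a threshold of 0.05. The code was tested on simulated data. A gene counts by its tested probe with the smallest p. Accessions were matched without versions to RefSeq genes on GRCm38.p6, which named 21437 probes. The rule for named genes took every receptor probe, up to 4 genes with the smallest p from each list, the 5 genes most like the receptor probe with the smallest p, and Gtf2i; other genes and markers named were chosen after their values were seen. A gene that the rule takes is not reported here, though counts include it. The members and lists were chosen with earlier results of these data known. Tried were 17 alternatives, from leaving out each array to other normalization, filters and tests. Python 3.11.15 drew the figures, with pandas 2.3.3 and matplotlib 3.10.9.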

Additional observations from a re-analysis of the deposited data

How the results depend on the processing

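The count of receptor genes passing, 3, was 1 to 4 when each array was left out in turn, while the count over all probes, 9333, was 2409 to 9885. The receptor count was 1 without replicate 1 (Chrnb2), 2 without replicate 2 (Chrna4 and Chrnb2) and 4 without replicate 3, which added Chrna7 as higher. Array weights raised the counts to 5 and 18617, with all 5 receptor genes lower, Chrna7 by its probe A_52_P648773 at -0.13 (limma adjusted p = 0.00465), so Chrna7 was called in opposite directions by these alternatives. With replicates 1 and 2 averaged and counted as 1 they were 1 and 5120, and with a B statistic above 0 they were 1 and 2661. The ordinary t statistic in limma gave 0 and 0 (8844 probes had an unadjusted p under 0.05). The other alternatives gave 2 or 3 receptor genes and 8230 to 9530 probes, apart from averaging a gene's probes, where 2 receptor genes and 7769 of 23704 averaged values passed. That averaging brought Chrm4 from -0.17 to 0 (limma adjusted p = 0.992), by construction, since its probes oppose each other. Chrm4 was given by its higher probe with loess normalization, with a dye term and without replicate 3. With a dye term, 0 probes passed for the dye itself. Alternatives for list genes were added after the data were seen, and Slc18a3, which did not pass, was -0.05 without replicate 1 and 0.27 without replicate 2. The other causes of these shifts were not tested. Signal over background limits Chrm1, Chrm2, Chrna3, Chrna5 and Chrnb4. No paired analysis was possible because there is a single group of ratios, with no second group to share its replicate numbers; the pairing of both genotypes on each array is already part of the test of the ratios.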

Other observations

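The genes whose ratios were most like those of the Chrna7 probe A_51_P108228, a comparison added after its values were seen, were Olfr798 (distance 0.287, log2 ratios of 0.06, 0.04 and 1.67 on replicates 1, 2 and 3), Zic1 (0.373), Hoxc9 (0.381), Tcf7l2 (0.407) and Ccn4 (0.421). Zic1 and Tcf7l2 had low wild-type signals there. Hoxc9 had mutant signals of 166, 163 and 854 and wild-type signals of 163, 152 and 215, and Olfr798 mutant signals of 163, 142 and 3034 and wild-type signals of 156, 139 and 952. Slc6a3, the dopamine transporter gene, was among the 8 probes with so large a gap between replicate 3 and the mean of replicates 1 and 2. Its wild-type signals were 985, 1031 and 155 and its mutant signals 1139, 1212 and 877.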
